A study of Mus musculus with 16 samples.

Results

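The 10 genes described here belong to the integrated stress response and to the unfolded protein response that feeds into it. They are Eif2ak3, Atf4, Atf5, Ddit3, Xbp1, Trib3, Chac1, Sesn2, Asns and Cth, and they were read in cells sorted from the mouse olfactory mucosa. They were chosen by name, and all 10 are among the 19505 genes named on the array. A gene with several probe sets is given by the probe set with the highest mean over the 16 arrays, which concerned Ddit3 alone. The mice were S100a5-tauGFP animals, in which a green fluorescent protein (GFP) reporter marks cells that express S100a5, a gene that olfactory sensory neurons (OSNs) switch on when they are active. All 24 mice, of both sexes and 7 to 12 weeks old, were kept 1 to a chamber for 40 h in clean air flowing at 3.1 L/min. From 26 h on they received pulses of 10 s every 20 min, either of 2-octanone, a straight-chain ketone odorant, or of filtered air as the vehicle. Cells of 3 mice were pooled and sorted by fluorescence, so each pool gave a GFP+ and a GFP− array and no value belongs to a single animal. The 4 groups were GFP+ cells after 2-octanone, GFP− cells after 2-octanone, GFP+ cells after vehicle and GFP− cells after vehicle, each with 4 arrays of replicate pools 1 to 4.

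In the integrated stress response, kinases that sense different stresses phosphorylate the translation factor eIF2. General protein synthesis falls, while the messenger RNAs of the transcription factors ATF4, ATF5 and CHOP are translated more. These factors then switch on genes for amino acid synthesis and transport, for redox balance and for feedback on the response itself. In mouse OSNs the branch through the kinase PERK has a developmental role as well: odorant receptor protein in the endoplasmic reticulum (ER) leads through PERK to the translation of Atf5, a step in the feedback that keeps a neuron to its chosen receptor. The arrays read RNA amounts only, so phosphorylation of eIF2, translation of Atf4 or Atf5, and the splicing that makes active XBP1 were not measured.

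The probe sets differed in how far they stood above the array's own background. Values are log2 signals, and the 23 background probe sets averaged 5.40 to 5.61 per array, with a 95th percentile of 7.61 to 8.18. Eif2ak3, Atf4, Atf5, Ddit3, Xbp1, Trib3 and Asns lay above that 95th percentile on all 16 arrays. Chac1 and Sesn2 lay under it on all 16 arrays and Cth on 15 of 16, although each of them was above the background mean on every array. Changes in Chac1, Sesn2 and Cth are therefore read from dim probe sets. A probe set's signal depends on its own probes, so levels are compared between groups and not between genes.

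The fractions were not pure cell types. Omp, which mature OSNs express, read 17.76 to 18.45 on all 16 arrays, in both fractions. The mean of 11 mature OSN genes read 16.15 to 16.36 in GFP+ and 15.87 to 16.10 in GFP− cells after 2-octanone. After vehicle it read 16.22 to 16.29 in GFP+ and 15.61 to 16.08 in GFP− cells. Neutrophil genes, taken as the mean of 9 genes, read 7.31 to 12.75 in GFP+ and 14.63 to 16.16 in GFP− cells after 2-octanone, and 6.76 to 8.50 in GFP+ and 14.74 to 15.78 in GFP− cells after vehicle. The mean of 10 immature OSN genes read 10.67 to 10.96 in GFP+ and 11.69 to 12.81 in GFP− cells after 2-octanone, and 10.47 to 10.88 in GFP+ and 12.49 to 12.73 in GFP− cells after vehicle. Differences between the fractions can thus hold differences in cell makeup, and fewer cells of a type cannot be told apart from less RNA per cell. The replicate 4 pools also stood apart: S100a5 read 13.11 to 13.92 on their 4 arrays and 15.45 to 16.98 on the other 12. In replicates 1 to 3, S100a5 read 16.63 to 16.98 in GFP+ and 15.68 to 15.77 in GFP− cells after 2-octanone. After vehicle it read 16.47 to 16.71 in GFP+ and 15.45 to 15.81 in GFP− cells. With all pools, its GFP+ minus GFP− difference over both exposures was 0.83 (SE 0.60). The test used below (limma) did not call it (adjusted p = 0.304). Member results are given with and without the replicate 4 pools where that matters.

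Promoter sequence was available for 9 of the 10 genes (RefSeq, build GRCm38.p6, from 250 bases before to 50 bases after the start site), but not for Cth. It was searched on both strands for TGATGNAA, the composite element bound by dimers of ATF4 with C/EBP proteins and known as an amino acid and stress response element. The element occurred in Chac1, Trib3 and Asns, against 3.97% of all 32851 promoters. The 3 windows are printed because these genes are textbook ATF4 targets. Trib3 and Asns lay on opposite sides in the sort as deposited, and Chac1 was read from a dim probe set. Capitals mark the element, and each window runs 5′ to 3′ on the strand that carries it.
Chac1: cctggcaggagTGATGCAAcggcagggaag
Trib3: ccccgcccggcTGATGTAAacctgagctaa
Asns: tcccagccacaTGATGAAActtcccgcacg
The Chac1 window lies at chr2:119351038-119351067 on the minus strand, opposite to the gene. Read in the gene's direction, the element begins at position -193 from the start site, which is its last base as printed. For Trib3 the window is chr2:152344028-152344057 on the plus strand, also opposite to its gene. In the gene's direction the element begins at position 15, after the start site, again its last base as printed. The Asns element is in the gene's own direction on the minus strand, within chr6:7693214-7693243, and begins at position -23. The ER stress response element was in 0.119% of all promoters and the XBP1 element core, TGACGTGG, in 0.676%. Neither was found in the windows of the 9 genes, which says only that these letters are not there. GFP+ minus GFP− over both exposures was -0.01 for the dim Chac1, 0.40 for Trib3 and -0.31 for Asns. With each array centred on its median, Asns was at -0.03. Whether the element bears on these differences was not tested.

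The first question was whether reporter-positive and reporter-negative cells differ in these genes. Over both exposures, Trib3 was higher in GFP+ cells, while Xbp1, Asns and Cth were lower there, by 1.24-fold to 1.43-fold. The 1.43-fold is that of Cth, read from a dim probe set. Trib3, Xbp1, Asns and Cth, 4 of the 10 genes, passed the test (limma, Benjamini-Hochberg adjusted p under 0.05 over 19572 probe sets). The same test called 30.7% of all probe sets, 16.7% higher and 14% lower, so the number called among the 10 is near the background and is no result about the group as a whole. The median difference of the 10 was -0.03, against 0.13 over all probe sets. The balance of directions rests on the scaling. With each array centred on its median, 5 of the 10 were called higher and 1 lower. Their median was then 0.24, against 0.406 over all probe sets. That setting called 77.4% of all probe sets, and 86.4% of those calls were higher, so this count too is no result about the group. Eif2ak3, Atf4, Atf5, Ddit3, Chac1 and Sesn2 did not pass.

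**Figure D1:**
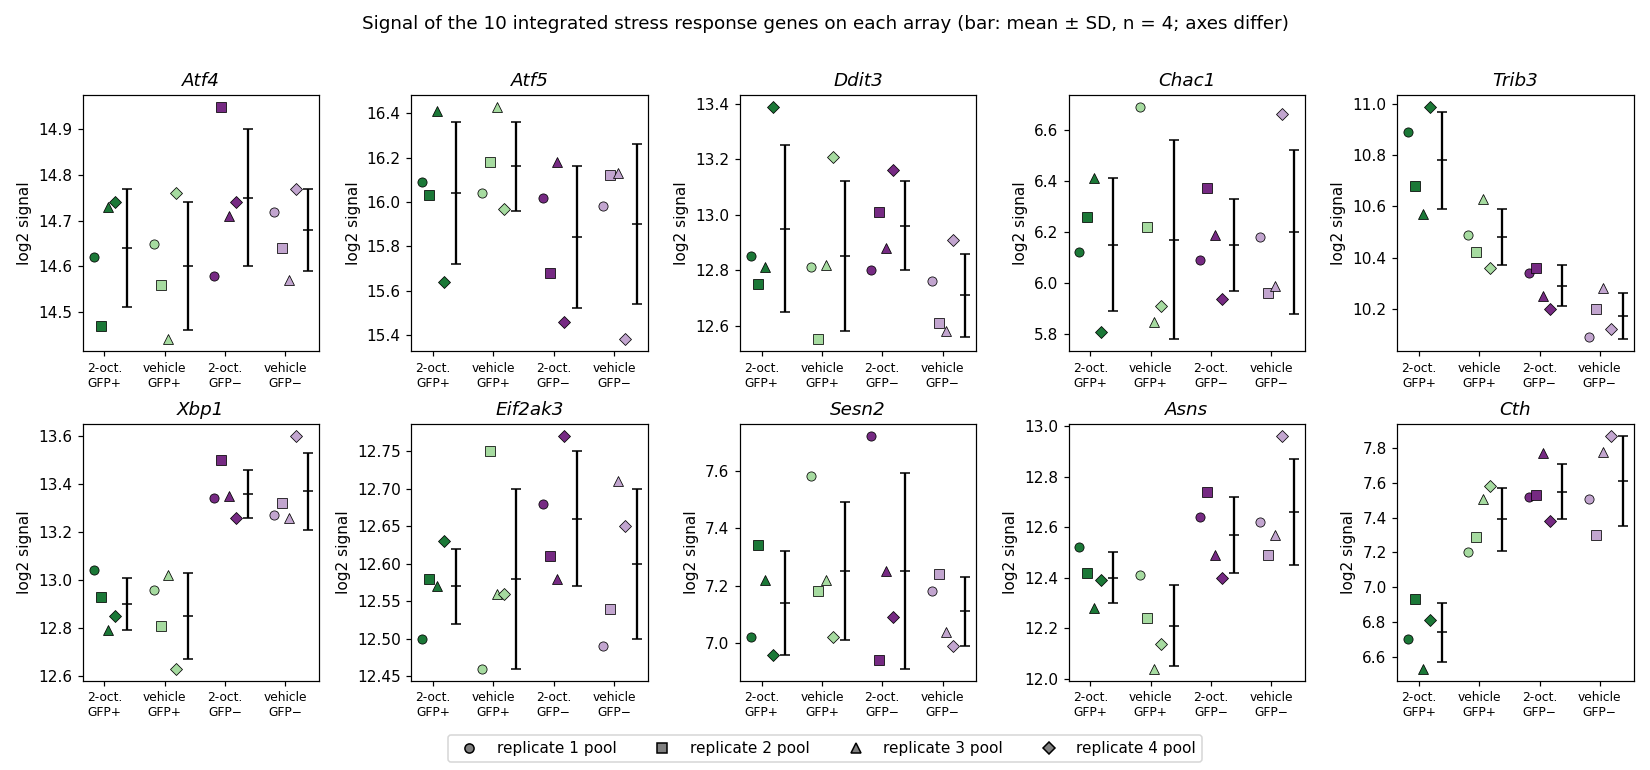
Log2 signal of each of the 10 genes on every array, with 1 panel per gene and its own vertical axis. Symbols mark replicate pools 1 to 4, and the bar beside each group is its mean ± SD (n = 4). Xbp1 read 12.63 to 13.04 on the GFP+ arrays and 13.26 to 13.60 on the GFP− arrays, and Ddit3 was highest and Atf5 lowest in the replicate 4 pool of every group.

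Eif2ak3 encodes PERK, the kinase that senses unfolded protein in the ER and phosphorylates eIF2. It had 12.50, 12.58, 12.57 and 12.63 in GFP+ and 12.68, 12.61, 12.58 and 12.77 in GFP− cells after 2-octanone. After vehicle it had 12.46, 12.75, 12.56 and 12.56 in GFP+ and 12.49, 12.54, 12.71 and 12.65 in GFP− cells. The 4 groups overlapped throughout, and the whole range of 0.31 was the smallest of the 10 genes. GFP+ minus GFP− was -0.05 (SE 0.07, 95% interval -0.21 to 0.10, adjusted p = 0.606), so a difference of more than 0.21 in size lies outside the interval. With each array centred on its median the sign turned and the gene was called, at 0.22 (adjusted p = 0.0132), while the median of all probe sets moved to 0.406.

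Atf4 encodes the central transcription factor of the response, which is controlled mainly at translation. Its values were 14.62, 14.47, 14.73 and 14.74 in GFP+ and 14.58, 14.95, 14.71 and 14.74 in GFP− cells after 2-octanone. After vehicle they were 14.65, 14.56, 14.44 and 14.76 in GFP+ and 14.72, 14.64, 14.57 and 14.77 in GFP− cells. The groups overlapped, and the difference in the sort was -0.09 (SE 0.08, 95% interval -0.27 to 0.09, adjusted p = 0.431), lower in 5 of 8 pools.

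Atf5, the relative of Atf4 that acts downstream of PERK in OSNs, was strongly detected in every group. In GFP+ cells it read 16.09, 16.03, 16.41 and 15.64 after 2-octanone, where GFP− cells read 16.02, 15.68, 16.18 and 15.46. The vehicle pools gave 16.04, 16.18, 16.43 and 15.97 in GFP+ and 15.98, 16.12, 16.13 and 15.38 in GFP− cells. Within pools GFP+ was above GFP− in 8 of 8, by 0.06 to 0.59, a pattern that 13.5% of all probe sets shared. The difference of 0.23 did not pass the test (SE 0.15, 95% interval -0.08 to 0.54, adjusted p = 0.242), nor did it in the fit blocked by pool (adjusted p = 0.0695), and it was 0.10 above the median of all probe sets. It was called only after median centring, at 0.51 (adjusted p = 0.00531).

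Ddit3 encodes CHOP, a C/EBP-family factor induced by ATF4. After 2-octanone it had 12.85, 12.75, 12.81 and 13.39 in GFP+ and 12.80, 13.01, 12.88 and 13.16 in GFP− cells. The vehicle pools had 12.81, 12.55, 12.82 and 13.21 in GFP+ and 12.76, 12.61, 12.58 and 12.91 in GFP− cells. The spread between pools was wider than any difference between the fractions, which was 0.06 (SE 0.12, 95% interval -0.19 to 0.31, adjusted p = 0.715). A further Ddit3 probe set gave 0.04 (adjusted p = 0.834).

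Xbp1, the transcription factor of the IRE1 branch and a driver of secretory capacity, had the smallest adjusted p in the sort of the 10 genes. GFP+ cells read 13.04, 12.93, 12.79 and 12.85 and GFP− cells 13.34, 13.50, 13.35 and 13.26 after 2-octanone. After vehicle, GFP+ cells read 12.96, 12.81, 13.02 and 12.63 and GFP− cells 13.27, 13.32, 13.26 and 13.60. No GFP+ array reached the lowest GFP− array in either exposure, which also held for 10.6% of all probe sets after 2-octanone and 11.8% after vehicle. The difference was -0.49 over both exposures (SE 0.09, adjusted p = 0.000393), a 1.40-fold lower signal, and lay 0.61 below the median of all probe sets.

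On the values as deposited, Xbp1 was called lower in each exposure, at -0.46 after 2-octanone (SE 0.12, adjusted p = 0.0161) and -0.51 after vehicle (SE 0.12, adjusted p = 0.007). In the sort over both exposures it was called in 16 of 16 alternative settings, at -0.53 to -0.21. The call within 2-octanone was lost without 2-octanone replicate 2 (-0.43, adjusted p = 0.0925) or 3 (-0.42, adjusted p = 0.0912). Within vehicle it was lost without replicate 4 (-0.36, adjusted p = 0.0783). Median centring ended both calls, at -0.20 after 2-octanone (adjusted p = 0.17) and -0.21 after vehicle (adjusted p = 0.147). Plasma cells use XBP1 for secretion. Beside 14% of all probe sets, 6 of 8 measured B cell and plasma cell genes were called lower in GFP+ cells over both exposures. Their mean signal averaged 5.80 in GFP+ and 7.33 in GFP− cells after 2-octanone, and 5.48 in GFP+ and 7.46 in GFP− cells after vehicle, and 4 of the 8 (Mzb1, Sdc1, Derl3 and Tnfrsf17) stayed under the background 95th percentile on all arrays of all 4 groups. The part of such cells in the Xbp1 difference was not tested.

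Trib3, a pseudokinase that ATF4 and CHOP induce and that in turn restrains ATF4, was the only gene of the 10 called higher in GFP+ cells on the values as deposited, while median centring also called Atf5, Ddit3, Sesn2 and Eif2ak3 higher. After 2-octanone it read 10.89, 10.68, 10.57 and 10.99 in GFP+ cells, against 10.34, 10.36, 10.25 and 10.20 in GFP− cells. After vehicle it read 10.49, 10.42, 10.63 and 10.36 in GFP+ cells, against 10.09, 10.20, 10.28 and 10.12 in GFP− cells. In both exposures the lowest GFP+ array was above the highest GFP− array. GFP+ arrays lay above GFP− arrays without overlap for 9.06% of all probe sets after 2-octanone and 11.3% after vehicle.

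Over both exposures the Trib3 difference was 0.40 (SE 0.08, 95% interval 0.22 to 0.57, adjusted p = 0.00146), or 1.32-fold, and 0.27 above the median of all probe sets. It was called in 16 of 16 alternative settings, at 0.35 to 0.68. Within 2-octanone the difference was 0.49 (SE 0.12, adjusted p = 0.0072), and without 2-octanone replicate 4 it was 0.40 with an adjusted p of 0.0637. Within vehicle it was 0.30 (SE 0.12), and the adjusted p of 0.0854 missed the threshold. Of 11 mature OSN genes, 5 were called higher in GFP+ cells over both exposures and 0 lower, beside 16.7% of all probe sets called higher. Their differences ran from 0.12 to 0.56, with a median of 0.26. The part of mature OSNs in the Trib3 difference was not tested.

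Chac1 encodes an enzyme that breaks down glutathione, and Sesn2 encodes sestrin 2, a stress-induced inhibitor of growth signalling through mTORC1. Chac1 read 6.12, 6.26, 6.41 and 5.81 in GFP+ and 6.09, 6.37, 6.19 and 5.94 in GFP− cells after 2-octanone. After vehicle Chac1 read 6.69, 6.22, 5.85 and 5.91 in GFP+ and 6.18, 5.96, 5.99 and 6.66 in GFP− cells. These dim values had no order between the groups, and the difference was -0.01 (95% interval -0.31 to 0.29, adjusted p = 0.949). Sesn2 read 7.02, 7.34, 7.22 and 6.96 in GFP+ and 7.72, 6.94, 7.25 and 7.09 in GFP− cells after 2-octanone. After vehicle Sesn2 read 7.58, 7.18, 7.22 and 7.02 in GFP+ and 7.18, 7.24, 7.04 and 6.99 in GFP− cells. Its groups overlapped too, with a difference of 0.01 (95% interval -0.24 to 0.26, adjusted p = 0.953). At this signal the intervals still hold changes of up to 0.31 for Chac1 and 0.26 for Sesn2.

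Asns encodes asparagine synthetase, the amino acid enzyme whose promoter is a classic example of the composite element. It read 12.52, 12.42, 12.28 and 12.39 in GFP+ and 12.64, 12.74, 12.49 and 12.40 in GFP− cells after 2-octanone, where the groups overlapped. After vehicle it read 12.41, 12.24, 12.04 and 12.14 in GFP+ and 12.62, 12.49, 12.57 and 12.96 in GFP− cells, without overlap. GFP+ was below GFP− in 8 of 8 pools, as for 12.2% of all probe sets, although in the 2-octanone replicate 4 pool by only 0.01.

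The Asns difference over both exposures was -0.31 (SE 0.09, 95% interval -0.51 to -0.11, adjusted p = 0.0186), a 1.24-fold lower signal. Within vehicle it was -0.45 (SE 0.13, adjusted p = 0.0224) and within 2-octanone -0.17 (SE 0.13, adjusted p = 0.438). The call over both exposures was lost without 2-octanone replicate 2 (-0.28, adjusted p = 0.0608) or vehicle replicate 4 (-0.25, adjusted p = 0.0603), and after median centring (-0.03, adjusted p = 0.76). The call within vehicle was lost without vehicle replicate 3 (-0.43, adjusted p = 0.0858) or 4 (-0.33, adjusted p = 0.154), with only the arrays compared (-0.45, adjusted p = 0.0693) and after median centring (-0.15, adjusted p = 0.308). The mean of proliferation genes read 5.54 to 6.09 in GFP+ and 7.66 to 8.96 in GFP− cells after 2-octanone. After vehicle it read 5.46 to 5.73 in GFP+ and 7.91 to 9.87 in GFP− cells. Over both exposures 6 of 6 were called lower in GFP+ cells, beside 14% of all probe sets. In GFP+ cells, 5 of the 6 after 2-octanone and 6 after vehicle were under the background 95th percentile on all 4 arrays. The part of proliferating cells in the Asns difference was not tested.

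Cth encodes cystathionine gamma-lyase, which makes cysteine from cystathionine at the end of transsulfuration. After 2-octanone it read 6.70, 6.93, 6.53 and 6.81 in GFP+ cells, against 7.52, 7.53, 7.77 and 7.38 in GFP− cells. After vehicle it read 7.20, 7.29, 7.51 and 7.58 in GFP+ cells, against 7.51, 7.30, 7.78 and 7.87 in GFP− cells. The 4 arrays of GFP+ cells after 2-octanone were the lowest 4 of all 16, and the 3 other groups overlapped one another.

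The Cth difference was -0.51 over both exposures (SE 0.11, adjusted p = 0.00142), -0.81 after 2-octanone (SE 0.15, 95% interval -1.12 to -0.49, adjusted p = 0.00105) and -0.22 after vehicle (SE 0.15, 95% interval -0.54 to 0.10, adjusted p = 0.343). After 2-octanone this was a 1.75-fold lower signal, and it was called in 16 of 16 alternative settings that held the probe set, at -0.89 to -0.55. Cth lay above the background 95th percentile on only 1 of 16 arrays, so the size of its differences is uncertain. Over both exposures the difference shrank to -0.24 with quantile normalisation (adjusted p = 0.0907) and to -0.23 with median centring (adjusted p = 0.0604), and neither was called. After vehicle both scalings turned the sign, to 0.08 each, so that difference has no settled direction.

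**Figure D2:**
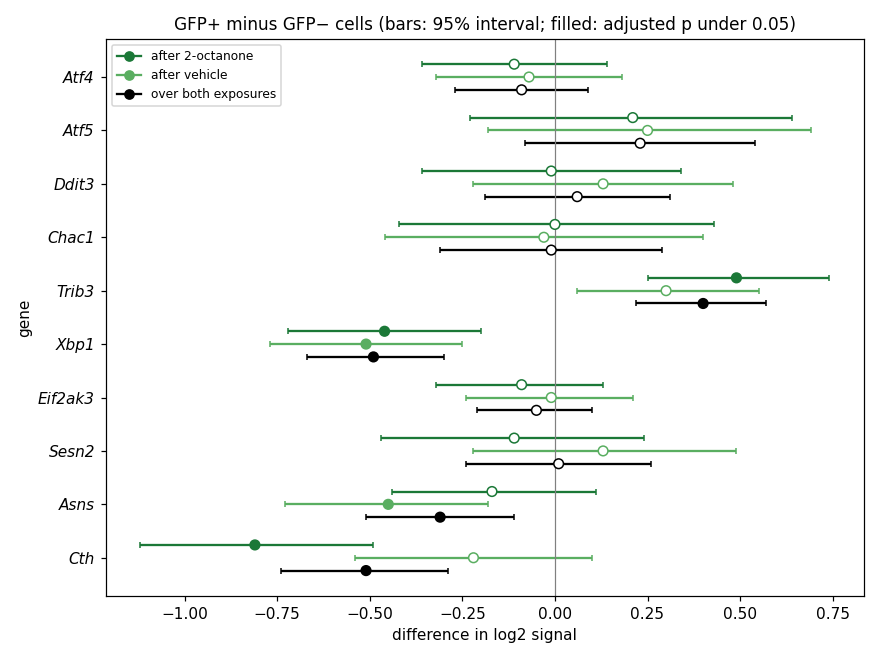
Difference in log2 signal between GFP+ and GFP− cells for each gene, after 2-octanone, after vehicle and over both exposures, with 95% intervals. Filled points have an adjusted p under 0.05, and the vertical line marks no difference. Trib3 lies to the right at 0.40 over both exposures, Xbp1, Asns and Cth lie to the left at -0.49, -0.31 and -0.51, and the intervals of the other 6 cross the line.

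Within 2-octanone pools, 3 of the 10 genes were called, with Trib3 higher and Xbp1 and Cth lower, beside 15.1% of all probe sets (5.29% higher and 9.8% lower). Within vehicle pools 2 were called, Xbp1 and Asns, both lower, beside 18.6% of all probe sets (7.54% higher and 11% lower). A gene called in only 1 exposure is not thereby shown to differ between exposures. That change of the difference was tested directly and called none of the 10 genes, nor any probe set (0%, limma), with 1 of the 10 and 465 probe sets (2.38%) at an unadjusted p under 0.05. The 1 was Cth, whose GFP+ minus GFP− difference changed by -0.59 with 2-octanone (SE 0.21, 95% interval -1.04 to -0.14, unadjusted p = 0.0138, adjusted p = 1). For Asns the change was 0.29 (95% interval -0.11 to 0.68), for Trib3 0.19 (-0.16 to 0.54) and for Xbp1 0.05 (-0.32 to 0.42).

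Pool by pool, the Trib3 difference was 0.55, 0.32, 0.32 and 0.79 in the 2-octanone pools, where the vehicle pools had 0.40, 0.22, 0.34 and 0.25. For Xbp1 the 2-octanone pools had -0.30, -0.56, -0.57 and -0.41, against -0.31, -0.51, -0.24 and -0.97 in the vehicle pools. The lowest value, that of vehicle replicate 4, stood apart from the other 3 vehicle pools. For Cth the 2-octanone pools had -0.82, -0.60, -1.24 and -0.56, against -0.31, -0.01, -0.27 and -0.30 in the vehicle pools. These Cth values come from a dim probe set, and the test of the change did not call it. Asns gave -0.12, -0.32, -0.21 and -0.01 in 2-octanone pools, which overlapped the vehicle pools at -0.21, -0.25, -0.53 and -0.82.

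**Figure D3:**
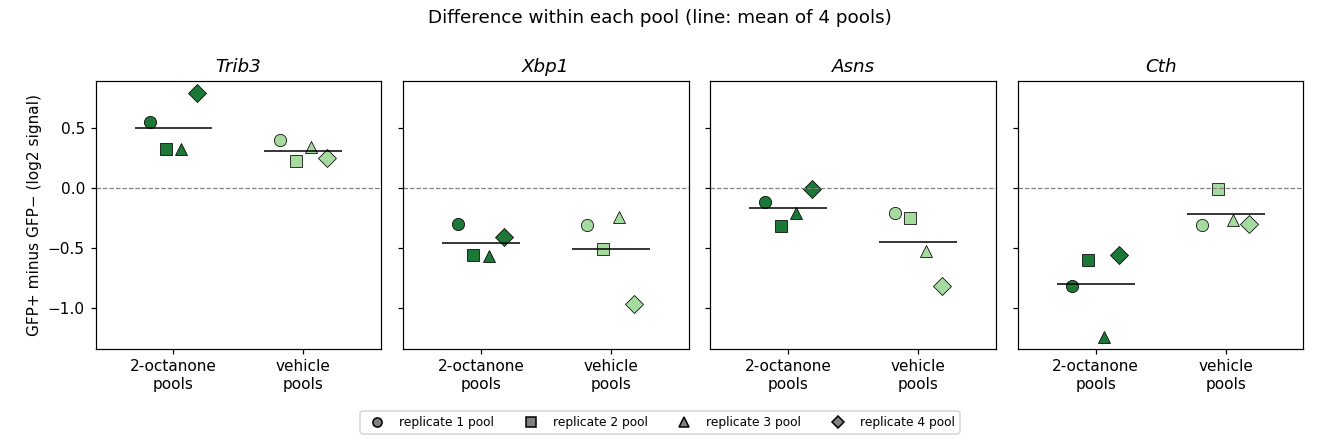
GFP+ minus GFP− difference in log2 signal within each pool of 3 mice for the 4 genes called in the sort, with 2-octanone pools left and vehicle pools right. Symbols mark replicates 1 to 4, short lines the mean of 4 pools and the dashed line no difference. Cth runs from -1.24 to -0.56 in the 2-octanone pools and from -0.31 to -0.01 in the vehicle pools, a change that was not called.

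The second question was whether 2-octanone changes these genes within a sorted fraction. In GFP+ cells none of the 10 was called, and 0% of all probe sets were (limma), with 2 of the 10 and 618 probe sets (3.16%) at an unadjusted p under 0.05. In GFP− cells none of the 10 was called, beside 0.00511% of all probe sets, which is 1 probe set, and 0 of the 10 and 477 probe sets (2.44%) had an unadjusted p under 0.05. The median difference of the 10 was 0.01 in GFP+ cells and 0.03 in GFP− cells.

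In GFP+ cells Cth averaged 6.74 ± 0.17 after 2-octanone and 7.39 ± 0.18 after vehicle (SD, n = 4 each), and the values given above did not overlap. Lower values without overlap occurred for 0.858% of all probe sets. The difference was -0.65 (SE 0.15, 95% interval -0.97 to -0.33), with an unadjusted p of 0.00051 and an adjusted p of 1 over all probe sets (limma). It ranged from -0.71 to -0.58 over 16 alternative settings, none of which called it, and was -0.06 in GFP− cells (95% interval -0.38 to 0.25). Neutrophil genes in GFP+ cells averaged 7.31, 7.37, 9.99 and 12.75 after 2-octanone and 7.34, 7.48, 6.76 and 8.50 after vehicle. Cth read 6.70 and 6.93 in the first 2 of these 2-octanone pools, beside 6.53 and 6.81 in the other 2. The part of neutrophils in the Cth difference was not tested.

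Trib3 in GFP+ cells averaged 10.78 ± 0.19 after 2-octanone and 10.48 ± 0.11 after vehicle (SD, n = 4 each). Its groups overlapped, since 2-octanone replicate 3 at 10.57 was below vehicle replicate 3 at 10.63. The difference of 0.30 had a 95% interval of 0.06 to 0.55, an unadjusted p of 0.0192 and an adjusted p of 1. In GFP− cells it was 0.11 (95% interval -0.13 to 0.36).

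Of the other genes, Asns differed by 0.20 in GFP+ cells (95% interval -0.08 to 0.47) and by -0.09 in GFP− cells (-0.37 to 0.19). Ddit3, the marker most often used for a prolonged stress response, differed by 0.10 in GFP+ cells (95% interval -0.24 to 0.45) and by 0.25 in GFP− cells (-0.10 to 0.60). The other Ddit3 probe set gave 0.29 in GFP− cells (unadjusted p = 0.123). Atf5 differed by -0.11 in GFP+ cells, with a 95% interval of -0.55 to 0.32. Eif2ak3, Atf4, Xbp1 and Chac1 differed by no more than 0.07 in size in either fraction. For the dim Chac1 the 95% intervals were wide, at -0.44 to 0.41 in GFP+ and -0.48 to 0.38 in GFP− cells. Sesn2 differed by -0.11 in GFP+ cells and by 0.14 in GFP− cells.

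**Figure D4:**
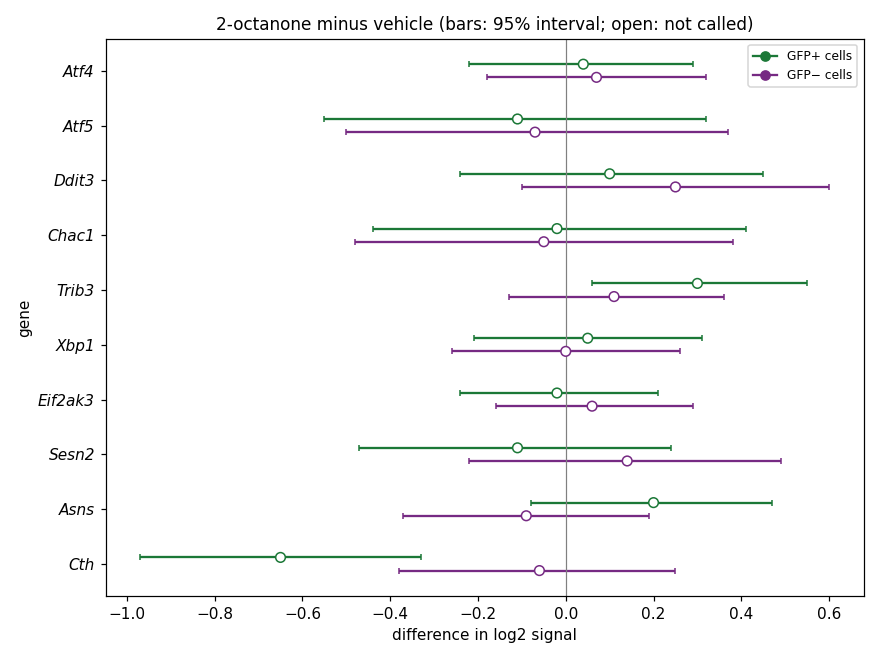
Difference in log2 signal between 2-octanone and vehicle for each gene, in GFP+ and in GFP− cells, with 95% intervals. All points are open because none had an adjusted p under 0.05. Cth in GFP+ cells lies at -0.65 and Trib3 in GFP+ cells at 0.30, and the intervals of the other genes and of both in GFP− cells cross the line of no difference.

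For Ddit3 and Atf5 the pools differed more than the exposures or the fractions did. Ddit3 was highest in the replicate 4 pool in 4 of 4 groups, a pattern held by 3.85% of all probe sets. It exceeded the mean of the other 3 pools by 0.59 in GFP+ and 0.26 in GFP− cells after 2-octanone, and by 0.48 in GFP+ and 0.26 in GFP− cells after vehicle. Its second probe set was highest there in 3 of 4 groups. Atf5 was lowest in the replicate 4 pool in 4 of 4 groups, as were 9.59% of all probe sets, and highest in replicate 3 in 4 of 4, as were 0.971%.

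The Atf5 signal of replicate 4 stood below the mean of the other 3 pools: the difference was -0.54 in GFP+ and -0.50 in GFP− cells after 2-octanone, and -0.25 in GFP+ and -0.70 in GFP− cells after vehicle. These were the pools with the lowest S100a5, and their Fos signal was also the highest of each group, at 10.88 to 16.01, against 8.46 to 14.06 on the other 12 arrays. Fos is an immediate early gene that many cell types induce, and cell dissociation is known to induce it too. How far the Ddit3, Atf5, S100a5 and Fos values of these pools belong together was not tested. Trib3, Xbp1, Asns, Cth and Chac1 were not highest or lowest in the same pool in all groups. Without both replicate 4 pools, the sort after vehicle called 0 of the 10 genes, beside 15.5% of all probe sets under that setting, with Xbp1 at -0.36 (adjusted p = 0.0643) and Asns at -0.33 (adjusted p = 0.125).

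The neighbouring genes of the pathway were described as 6 lists. Among the other eIF2 kinases and the subunits of eIF2, eIF2B and its phosphatase, 12 of 13 listed genes were measured, with 1 called higher and 1 lower in GFP+ cells over both exposures, or 16.7% beside 30.7% of all probe sets. With median centring 8 were higher and 1 lower, in a setting that called 77.4% of all probe sets, 86.4% of them higher. Eif2ak2, which encodes the kinase PKR that senses double-stranded RNA, read 8.38, 8.53, 8.34 and 8.03 in GFP+ and 8.92, 8.76, 8.84 and 9.44 in GFP− cells after 2-octanone. After vehicle it read 8.01, 8.70, 8.70 and 8.09 in GFP+ and 9.04, 9.02, 9.14 and 9.21 in GFP− cells. Eif2ak2 was thus lower in GFP+ cells, without overlap in either exposure, with a difference of -0.70 (SE 0.13, adjusted p = 0.000621). Eif2b4, a subunit of the exchange factor that phosphorylated eIF2 blocks, was higher, at 0.37 (SE 0.13, adjusted p = 0.0376). The haem-regulated kinase Eif2ak1 (-0.24) and the amino acid sensing kinase Eif2ak4 (-0.22) did not pass.

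Of 25 listed ATF4 targets outside the 10 genes, 23 were measured, and 3 were higher and 5 lower in GFP+ cells, which is 34.8% of those measured beside 30.7% of all probe sets. Psat1, an enzyme of serine synthesis, read 6.79, 6.63, 6.69 and 6.85 in GFP+ and 7.95, 8.26, 7.29 and 7.91 in GFP− cells after 2-octanone. After vehicle Psat1 read 6.34, 7.11, 6.43 and 6.82 in GFP+ and 8.11, 7.81, 7.28 and 9.09 in GFP− cells. The groups did not overlap in either exposure, and the Psat1 difference was -1.26 (SE 0.21, adjusted p = 0.000209). All 8 GFP+ arrays read Psat1 under the background 95th percentile, and only 4 of all 16 arrays exceeded it, so the size of the difference is uncertain. Slc7a11, the cystine transporter subunit, was lower too, at -1.16 (SE 0.33, adjusted p = 0.0147). It was likewise under that percentile on all 8 GFP+ arrays and above it on only 2 of all 16, so its size is uncertain as well. Nupr1, a stress-induced nuclear protein, averaged 8.14 ± 0.55 in GFP+ and 9.21 ± 0.62 in GFP− cells after 2-octanone, and 8.26 ± 0.39 in GFP+ and 9.18 ± 0.51 in GFP− cells after vehicle (SD, n = 4 each). It was also called lower (SE of the difference 0.23, adjusted p = 0.00385).

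The 3 ATF4 targets that were higher were Cbs, the enzyme of transsulfuration just before Cth, at 0.47 (SE 0.15, adjusted p = 0.023), the proline synthesis enzyme Aldh18a1 at 0.37 (adjusted p = 0.0489) and the alanine transaminase Gpt2 at 0.34 (adjusted p = 0.0177). Cbs and Cth thus lay on opposite sides in the sort. The median of the list was -0.11, against 0.13 over all probe sets. With median centring 9 were higher and 3 lower, beside 77.4% of all probe sets called, with a median of 0.17 against 0.406.

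Cytosolic aminoacyl-tRNA synthetases, many of which ATF4 induces, had 14 of 15 measured. As deposited, Mars1, for methionine, was the only one called, higher by 0.23 (SE 0.09, adjusted p = 0.0478). That is 7.14% of the list beside 30.7% of all probe sets, and the median of 0.13 equalled theirs. With median centring 13 were higher and 0 lower, with a median of 0.40 against 0.406. That setting called 77.4% of all probe sets, 86.4% of them higher. In the IRE1 and ATF6 branches and among ER chaperones, 22 of 25 were measured, with 3 higher and 1 lower, or 18.2% beside 30.7% of all probe sets. With median centring 17 were higher and 1 lower, again beside 77.4% of all probe sets called. The lower gene was Edem1, which delivers misfolded glycoproteins to degradation. It read 9.77, 9.75, 9.79 and 9.97 in GFP+ and 10.82, 10.88, 10.76 and 10.78 in GFP− cells after 2-octanone, and after vehicle 10.15, 9.65, 9.66 and 9.24 in GFP+ and 10.75, 10.91, 10.85 and 11.37 in GFP− cells. The Edem1 difference was -1.14 (SE 0.12, adjusted p = 1.32e-06).

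Edem1 and Xbp1 were thus both lower in GFP+ cells in 8 of 8 pools, as were 12.2% of all probe sets. The other called genes of that list went the other way. The co-chaperones Dnajb9 (0.39, SE 0.13, adjusted p = 0.0334) and Dnajb11 (0.34, SE 0.10, adjusted p = 0.0132) and the chaperone Hyou1 (0.25, SE 0.09, adjusted p = 0.0495) were higher. Hspa5, the main ER chaperone BiP, differed by -0.01 (SE 0.08, adjusted p = 0.949), with group means of 16.67 in GFP+ and 16.72 in GFP− cells after 2-octanone and 16.69 in GFP+ and 16.66 in GFP− cells after vehicle.

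Of 7 genes of receptor choice and feedback, 5 were higher with median centring, beside 77.4% of all probe sets called. As deposited, 2 were higher in GFP+ cells, or 28.6% beside 30.7% of all probe sets. They were Rtp2, which helps receptors reach the cell surface, at 0.45 (SE 0.15, adjusted p = 0.0291), and Adcy3, the adenylyl cyclase of odour signalling, at 0.37 (SE 0.11, adjusted p = 0.0141). Kdm1a, the demethylase needed for the first choice of a receptor, was at -0.18 (SE 0.08, adjusted p = 0.0903). Among the relatives of Trib3 and Sesn2, Trib2, Sesn1 and Sesn3 did not pass. Trib1 was called lower (adjusted p = 0.00233), but it was under the background 95th percentile on all 16 arrays, with group means of 5.36 in GFP+ and 5.78 in GFP− cells after 2-octanone and 5.19 in GFP+ and 6.01 in GFP− cells after vehicle, so no size is given. No gene of the 6 lists was called for 2-octanone in either fraction or for the change of the GFP+/GFP− difference, as was also so for the 10 genes.

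**Figure D5:**
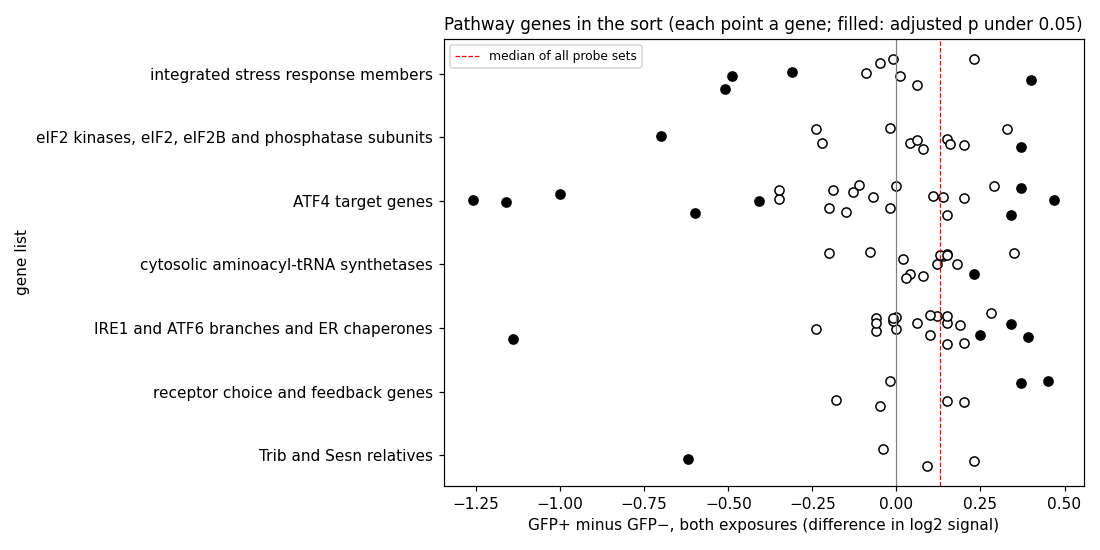
GFP+ minus GFP− difference in log2 signal over both exposures for the 10 genes and the 6 lists of neighbouring pathway genes, with 1 point per gene. Filled points have an adjusted p under 0.05, the solid line marks no difference and the dashed line the median of all probe sets at 0.13. ATF4 targets spread from -1.26 to 0.47, while tRNA synthetases stay between -0.20 and 0.35.

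For the 3 genes with the largest difference in the sort, the genes with the most similar course over the 16 arrays were found by the root mean square difference between profiles centred on their own mean. For Cth, whose own spread was 0.39, they were Arl15 (0.208), Cebpa (0.211) and Runx3 (0.223). For Xbp1, with a spread of 0.27, they were Ifnar2 (0.113), Rnf10 (0.116) and Cd47 (0.120). For Trib3, with 0.25, they were Jam3 (0.101), Ptpmt1 (0.121) and Cep19 (0.126). All 9 were measured on the same 16 arrays and share the contrast between the fractions.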

How the data were processed

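Clariom S mouse arrays measured RNA in GFP+ and GFP− fractions of 8 pools of 3 mice. Per the labels' protocols, 50 to 100 ng of total RNA went into the cRNA. The software was Affymetrix Expression Console, per the submitters' processing notes. The values the authors deposited were read as log2 signals from their range of 2.13 to 18.99; the log base and the algorithm are not given in the sources used here. Of 28846 probe sets, the 19572 that name 1 gene were fitted together, which left out 6640 controls and 2634 without a gene name. Array medians were 7.64 to 8.01. The number of arrays limits the precision.

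All 16 arrays were fitted on group means in R 4.3.3 with lmFit and eBayes of limma 3.58.1 (12 residual and 4.19 prior degrees of freedom), two-sided, and p-values were adjusted over the 19572 probe sets by Benjamini-Hochberg. The fit was tested on simulated data with independent noise, no pool effects and only a small share of the probe sets changed. Of 67 probe sets changed by 0.5, it called 23 in the sort over both exposures. For 2-octanone it called 9 in GFP+ and 7 in GFP− cells, and 1 for the change of the difference. Of 67 changed by 1, the calls were 62, 51, 48 and 23. Changes of 0.5 with 2-octanone would thus mostly be missed. The real sort over both exposures called 30.7% of all probe sets, which eases its adjusted p threshold. The simulated counts for the sort therefore do not describe that test. No pool is stated to be a batch. The 10 genes, the lists and the settings were chosen with earlier results of these data known. All 10 genes are named, with up to 3 called genes per list and direction with the largest differences, the 3 most similar profiles of 3 genes, and S100a5 and Omp. Eif2ak1, Eif2ak4, Hspa5, Kdm1a, Fos, Trib2, Sesn1 and Sesn3 were chosen after seeing their values.

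The GFP+ and GFP− cells of a pool share their mice and are paired by it. Residuals of same-numbered 2-octanone and vehicle arrays correlated across genes at 0.193, 0.175, 0.265 and 0.435 in GFP+ and at 0.336, -0.062, 0.352 and 0.517 in GFP− cells, so the numbers met the limit of 0.1 as pairs in GFP+ cells but not in GFP− cells. Alternatives were quantile normalisation, median centring, a filter on dim probe sets, unnamed probe sets, trend and robust options, array weights, blocks, only the arrays compared, and leaving out pools. Promoter sequences are RefSeq's, build GRCm38.p6.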

Additional observations from a re-analysis of the deposited data

Results flagged for a closer look

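Of 60 sets of 4 values for the 10 genes (4 groups, and the pool differences of both exposures), 3 held a value farther from the other 3 than Dixon's 95% critical value for 4 values allows; chance gives about 1 in 20 sets. For Ddit3 in GFP+ cells after 2-octanone, replicate 4 stood apart at 13.39, with a gap of 0.838 of the range. For the Atf4 difference between GFP+ and GFP− cells, the 2-octanone replicate 2 pool was at -0.48 (gap 0.931), while the other 3 lay between 0.00 and 0.04. For the Cth difference, the vehicle replicate 2 pool was at -0.01 (gap 0.862), while the other 3 lay between -0.31 and -0.27. What sets these values apart was not tested.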

How the results depend on the processing

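Median centring of each array mattered most. It moved the median of all probe sets in the sort from 0.128 to 0.406 over both exposures, from 0.117 to 0.374 after 2-octanone and from 0.123 to 0.422 after vehicle, and so it turned Eif2ak3 to 0.22 (adjusted p = 0.0132) over both exposures and to 0.29 (adjusted p = 0.0315) after vehicle. The calls grew to 15141, 9535 and 11289 (6000, 2955 and 3633 otherwise), of which 86.4%, 83% and 84.7% were higher (54.4%, 35.1% and 40.6% otherwise). Quantile normalisation gave 64.6%, 51% and 55.9% higher. The filter on dim probe sets left 3664, 1811 and 2221 calls among 9786 and dropped Cth, and without 2-octanone replicate 2 the sort after 2-octanone had 1963 calls. Of the 10 genes, 2 were called after vehicle, beside 18.6% of all probe sets. With centring it was 5 (beside 57.7%), with only the arrays compared 1 (15.6%) and without both replicate 4 pools 0 (15.5%). With 1 pool left out it was 0 to 2, beside 13% to 19.6% of all probe sets. With centring, Xbp1 lost its call after 2-octanone (-0.20, adjusted p = 0.17) and after vehicle (-0.21, adjusted p = 0.147), and Trib3 after vehicle was called at 0.60 (adjusted p = 0.000922), as with array weights (0.32, adjusted p = 0.0469). With the pool as a block, 4, 3 and 2 of the 10 genes were called in the sort over both exposures, after 2-octanone and after vehicle, with no member call changed, among 7038, 3855 and 4288 calls in all. With the replicate number as a block, 0 genes of the 10 and 0 probe sets were called for 2-octanone in either fraction. Of 982 values of the 10 genes under alternatives, 86 changed sign, 2 of them with a call, both Eif2ak3. The cause of these changes was not tested, beyond the shift that centring itself makes.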
